A study of Mus musculus with 2 samples.

Results

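Ribosome biogenesis is the making of the small and large ribosomal subunits in the nucleolus. RNA polymerase I transcribes the precursor ribosomal RNA there, box C/D and box H/ACA small nucleolar ribonucleoproteins (snoRNPs) modify it, and a large set of assembly factors folds, cleaves and packs it with ribosomal proteins. Embryonic stem cells divide fast and are known for a high demand for ribosomes. Of the genes of this pathway, 45 were chosen by symbol and described here through their protein-coding transcripts, 83 of the 49490 protein-coding transcripts in the data. The choice used gene function and not the measured values, but it was made with earlier results of these data known.

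The samples were wild-type mouse embryonic stem cells (mESC, the XY line DTCM23/49, depleted of feeder cells and kept with leukemia inhibitory factor on gelatin). The cells received 200 µM 4-thiouridine (4sU), a uridine analog that is built into RNA under synthesis, for 10 min. After biotinylation and streptavidin capture, the labeled pool held newly transcribed RNA and the supernatant held the unlabeled, preexisting RNA. From each pool 1 library was analysed, so no value has a replicate, an error or a test. The title of the unlabeled library calls it total, while its description calls it preexisting, and it is read as preexisting unless stated.

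Each transcript has an exon value and an intron value in each library. Both are relative abundances per length that sum to 10000000 over all rows of a library, which is 10 times the usual TPM scale, and the number of reads behind them is unknown. For each gene, the protein-coding transcript with the highest mean exon value stood for the gene. Genes entered when none of the 4 values was 0 and the mean of both exon values exceeded 1, which left 12652 genes and 43 of the members. The other two were Nop10, whose intron is listed at 0 in unlabeled RNA, and Rrs1, which has 1 exon and so no intron value. The cell type was checked by markers, and 10 of 10 pluripotency markers were above 10 units in unlabeled RNA (summed exon values of 13684 labeled and 16991 unlabeled). Of the fibroblast markers, 5 of 7 were listed at 0 in unlabeled RNA (sums of 7.49 and 16.2), including Col3a1, Pdgfrb and Lum. Endoderm markers summed to 4.87 and 5.88 with 4 of 5 at 0, and mesoderm markers to 1.15 and 6.77 with 2 of 4 at 0. Neural markers summed to 279 and 341, mostly Pax6 (138 labeled, 151 unlabeled) and Tubb3 (133 and 157). Their part in the results was not tested.

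Members were abundant in exons and introns beside the median gene. The mean exon value had a median of 197 over the 43 members and 26.8 over all genes, and the lowest member, the box C/D snoRNP gene Rrp9, stood at 27.7. Relative to the median gene, members were shifted little between the pools, with a median log2 difference of exon values of -0.11. Members went both ways: small snoRNP proteins were among the genes higher in new RNA, while long assembly factors, Mybbp1a, Ddx21 and Polr1a were lower. Intron to exon ratios were low in both pools.

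Members supply several of the introns from which small nucleolar RNAs (snoRNAs) are released, and these sequences link the proteins to the guide RNAs they work with. In the GENCODE M21 annotation (GRCm38), 7 members held 16 annotated snoRNAs on their own strand inside an intron of the transcript described: Ncl, Gnl3 and Wdr43 held 3 each, Nop56, Nop58 and Tsr1 held 2 each, and Dkc1 held 1. Hosts made up 16.3% of the 43 members and 1.62% of all 12652 genes. At least 1 snoRNA of each host is shown, except of Dkc1, whose snoRNA carries none of the boxes searched. The sequences are given as annotated, 5′ to 3′ in DNA letters. Capitals mark the C box core TGATG (in the first 20 bases) and the D box CTGA (in the last 20 bases), where box C/D proteins such as Fbl and Nop58 assemble, or the ACA that ends 3 bases before the 3′ end of a box H/ACA RNA.
Snord92: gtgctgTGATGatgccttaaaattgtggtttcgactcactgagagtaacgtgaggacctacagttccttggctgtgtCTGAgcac
Snord11: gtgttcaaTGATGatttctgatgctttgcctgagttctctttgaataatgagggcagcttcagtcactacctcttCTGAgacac
Snord82: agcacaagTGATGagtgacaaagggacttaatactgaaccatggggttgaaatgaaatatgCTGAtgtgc
Snord69: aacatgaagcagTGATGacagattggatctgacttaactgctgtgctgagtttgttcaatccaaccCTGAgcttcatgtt
Snord91a: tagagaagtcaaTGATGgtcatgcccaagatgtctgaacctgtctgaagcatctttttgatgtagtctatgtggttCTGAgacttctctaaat
Gm23650: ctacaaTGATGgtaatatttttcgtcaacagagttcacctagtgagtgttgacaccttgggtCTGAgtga
Snora75: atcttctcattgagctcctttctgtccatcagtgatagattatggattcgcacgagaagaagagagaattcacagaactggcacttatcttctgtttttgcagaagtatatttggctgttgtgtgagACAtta
Introns are numbered within the transcript described. That transcript holds 7 of up to 15 exons in Nop58 and 5 of up to 12 in Nop56, so their numbers hold for those short isoforms only. Snord92 lies in intron 4 of Wdr43 (chr17:71631281-71631365, plus strand), Snord11 in intron 2 of the Nop58 transcript (chr1:59704790-59704873, plus strand) and Gm23650 in intron 2 of the Nop56 transcript (chr2:130277697-130277766, plus strand). Snord82 and Snora75 lie in introns 5 and 12 of Ncl (chr1:86356261-86356330 and chr1:86351169-86351301, minus strand). Snord69 lies in intron 9 of Gnl3 (chr14:31014287-31014366, minus strand) and Snord91a in intron 10 of Tsr1 (chr11:74905424-74905516, plus strand). Of the 16, 10 carried both a C and a D box by these letters and 1 carried the ACA. The other 5 carried neither this pair nor the ACA. A C or D box alone, such as the TGATG of Snord53, was not counted. Of all 1507 annotated snoRNAs, 23.6% carried the pair and 18.0% the ACA. The libraries held little signal for the snoRNAs themselves: 13 of the 16 were listed at 0 in both pools, as were 80.4% of all annotated snoRNAs. The exceptions were Snora75 (134 labeled, 8.26 unlabeled), Gm22771 in Tsr1 (270 labeled, 0 unlabeled) and Snord92 (0 labeled, 188 unlabeled).

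A second set of sequences is shown because members that work together often share a promoter element. CACGTG is the canonical E-box, a letter string that Myc family factors can bind and that reads the same on both strands. Of the 45 members, 37 matched a RefSeq promoter window (GRCm38.p6, 250 bases before the start to 50 after it). The motif stood in the 250 bases before the start of 1 of them (2.70%), beside 6.86% of all 27025 genes with such a window and 9.75% of the 9949 matched genes with values. In the 50 bases after the start it stood in 8 of them (21.6%), beside 1.28% of all genes and 1.89% of the matched genes with values. The whole window held it in 9 members (24.3%), in 8.09% of all genes and in 11.6% of the matched genes with values. The 50-base window was singled out after its count was seen. Each site is printed with 10 bases before and 4 bases after the motif, which is in capitals, on the strand of the gene.
Pes1: ctaggcagggCACGTGcggg
Utp4: cgcaagcgcgCACGTGgggc
Wdr43: cccgggcgaaCACGTGgctg
Tsr1: acttggtgcaCACGTGgact
Ltv1: cctgtggaccCACGTGtgga
Pno1: tacaaccacgCACGTGttcc
Utp20: gcactaactaCACGTGagga
Mybbp1a: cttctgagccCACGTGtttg
Nop2: gtccctggatCACGTGtgtt
The first base of the motif was base 3 after the start in Pes1 (chr11:3963967-3963986, plus strand), base 16 in Utp4 (chr8:106893645-106893664, plus strand) and base 18 in Wdr43 (chr17:71616222-71616241, plus strand). It was base 25 in Tsr1 (chr11:74898094-74898113, plus strand), base 29 in Ltv1 (chr10:13193100-13193119, minus strand) and base 41 in Mybbp1a (chr11:72441357-72441376, plus strand). In Pno1 (chr11:17211543-17211562, minus strand) and Utp20 (chr10:88826768-88826787, minus strand) it was base 38 in each. In these 8 genes the motif lay in the annotated 5′ UTR of the transcript described, and in Nop2 (chr6:125131813-125131832, plus strand) it lay 60 bases before the RefSeq start, upstream of the annotated transcript. Of the 9 genes, 6 are factors of the small subunit, the largest role group with 15 of the 45 members. Their labeled intron values had a median of 22.3 (range 13.2 to 64.6), beside 22.4 (4.77 to 471) for the 27 matched members without the motif that had a full set of values. Their exon differences between the pools had a median log2 of -0.48 (range -1.24 to 0.08), beside 0.03 (-1.37 to 1.55). The match is a description of letters, and binding was not measured.

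The abundant nucleolar proteins came first in level. Npm1 (nucleophosmin, the main protein of the granular outer nucleolus) had the highest mean exon value of all 12652 genes, with 62396 in labeled and 55602 in unlabeled RNA (chr11:33155328-33163076, minus strand). Its intron values were 347 and 91.7. Each of its 4 protein-coding isoforms was listed at 41606 to 62396 in labeled RNA, and the product of exon value and exon length differed by up to 1.37-fold in labeled and 1.63-fold in unlabeled RNA among them. Isoforms with shared exons are not taken as separate measurements. Npm1 also has processed pseudogenes, and reads shared with them could be split in the counting. Ncl (nucleolin, an RNA-binding protein of the dense nucleolus) followed with exon values of 2050 and 2360 and intron values of 65.7 and 6.16. Mybbp1a, a nucleolar protein that binds Myb, had 243 labeled and 728 unlabeled in exons, against 13.2 and 1.15 in its introns.

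**Figure D1:**
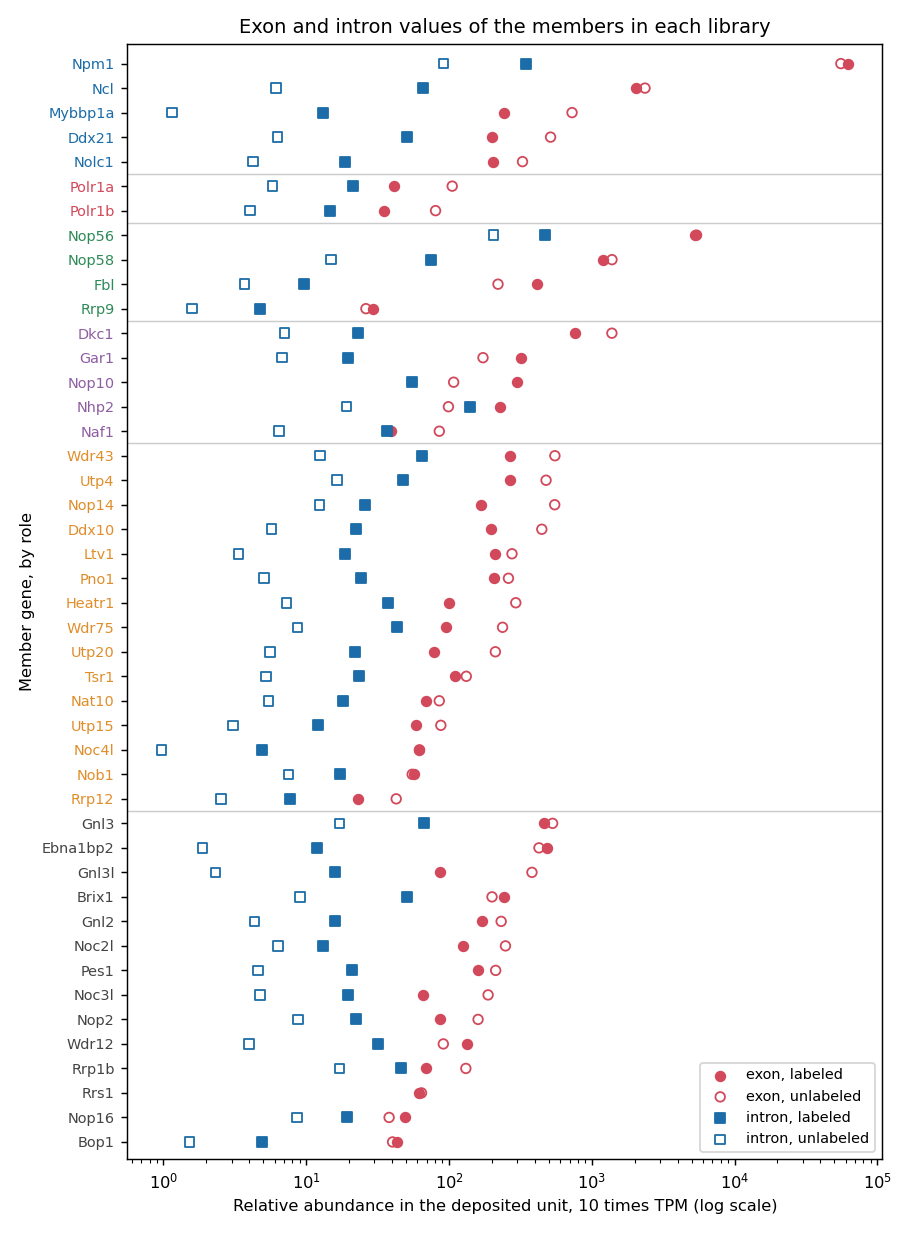
Relative abundance in the deposited unit (10 times TPM, log axis) of each of the 45 members, grouped by role and ordered by mean exon value, with exons as circles and introns as squares, and labeled RNA filled and unlabeled RNA open. Npm1 stands alone at the top of the range, and each intron marker with a value in both pools is higher in labeled than in unlabeled RNA. Rrs1 has no intron marker, and Nop10 has no open square because its unlabeled intron is listed at 0.

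The differences between pools are given as log2 of labeled over unlabeled exon values relative to the median of all genes, which itself stood at -0.34. Introns took 15.4% of the labeled and 6.26% of the unlabeled library, and with each library scaled to its exon total the median gene stood at -0.20. A value of 0 therefore means the same difference as the median gene. Npm1 had a difference of 0.51, the highest among the abundant nucleolar proteins, and Mybbp1a had -1.24, the lowest. Ncl stood at 0.14, Nolc1 (a chaperone of snoRNPs) at -0.35 and Ddx21 (an RNA helicase of rRNA transcription and processing) at -1.03.

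Both RNA polymerase I subunits were below the members' median level and below the median gene in exon difference. Polr1a, the largest subunit, had exon values of 41.5 labeled and 105 unlabeled, and Polr1b, the other catalytic subunit, had 35.0 and 80.5. Relative to the median gene, Polr1a was 2.003-fold lower in labeled exon RNA, and Polr1b had a log2 difference of -0.86. Their intron values were 21.4 and 5.80 for Polr1a and 14.6 and 4.05 for Polr1b, which placed their introns near the median gene (differences of -0.12 and -0.15).

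The box C/D snoRNP genes were all above the median gene in the transcripts described. Nop56, a core scaffold protein, was the member with the second highest level, with exon values of 5282 labeled and 5423 unlabeled (chr2:130277157-130279278, plus strand). Its introns reached 471 in labeled RNA, rank 19 of all genes, and 205 in unlabeled RNA. The transcript described holds 5 exons, of up to 12 in the coding isoforms of this gene. Nop58, its partner on the C/D snoRNA, had 1198 and 1386, the lowest difference of this group at 0.13. This transcript holds 7 of up to 15 exons. The Nop58 isoform with 13 exons had 1004 and 1448, a difference of -0.18, below the median gene. The isoform with 15 exons had 262 and 296, a difference of 0.17. Fbl (fibrillarin, the methyltransferase that 2′-O-methylates rRNA) had 411 and 220, the highest at 1.24. Rrp9 had 29.2 and 26.2, a difference of 0.50.

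The box H/ACA group held the members with the highest differences, and also 2 that lay below the median gene. Nhp2, a small core protein of the pseudouridine synthase complex, had 229 labeled and 99.1 unlabeled (chr11:51619735-51623714, plus strand), a difference of 1.55. Gar1, another core protein, had 321 and 173, a difference of 1.23. Nop10, the smallest core protein, had 301 and 108 and a difference of 1.82, with introns at 55.2 in labeled RNA and listed at 0 in unlabeled RNA. Dkc1 (dyskerin, the pseudouridine synthase itself and the most abundant of the group) went the other way, with 759 and 1384 and a difference of -0.52. Naf1, an assembly factor that is replaced by Gar1 in the mature particle, was lowest with 39.1 and 85.5, a difference of -0.78. The 3 small structural proteins thus stood at least 2-fold above the median gene, and the enzyme and the assembly factor stood below it.

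Among the 15 factors of the small subunit the median difference was -0.48, and 10 of the 15 were below 0. Wdr43, part of the complex that joins transcription of rRNA to its processing, had the highest level of this group with 268 labeled and 552 unlabeled, a difference of -0.70. Nob1, the endonuclease that makes the 3′ end of 18S rRNA, had the highest difference of the group at 0.39 with exon values of 56.9 and 55.2. Nop14, a processome factor, had the lowest with 168 and 550, a difference of -1.37, measured on a transcript with 4 of up to 18 exons. Its isoform with 18 exons had 208 and 427, a difference of -0.69, which lies within 2-fold and is not the lowest of the group. The large scaffold proteins Heatr1 (99.8 and 294) and Utp20 (79.1 and 211) were also at least 2-fold lower, at -1.21 and -1.07. No factor of the small subunit was 2-fold higher.

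The 13 factors of the large subunit with a full set of values had a median of -0.08. Gnl3 (nucleostemin, a nucleolar GTPase known from stem cells) had the highest level with 464 labeled and 532 unlabeled, a difference of 0.15. Wdr12, a partner of Pes1 and Bop1, had the highest difference at 0.90 with 134 and 91.3. Gnl3l, the close relative of Gnl3, had the lowest of all members with 86.2 and 381 (chrX:150983141-151017322, minus strand), a difference of -1.80. Noc3l, a factor of 60S export, was lower as well with 66.1 and 188, a difference of -1.16. Rrs1, the single-exon gene, had 61.9 and 64.2, a difference of 0.29. Of the paralogs Gnl3 and Gnl3l, the introns of Gnl3l (15.9 and 2.31) stood above the median gene at 0.78 and those of Gnl3 (66.9 and 17.1) close to it at -0.04.

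**Figure D2:**
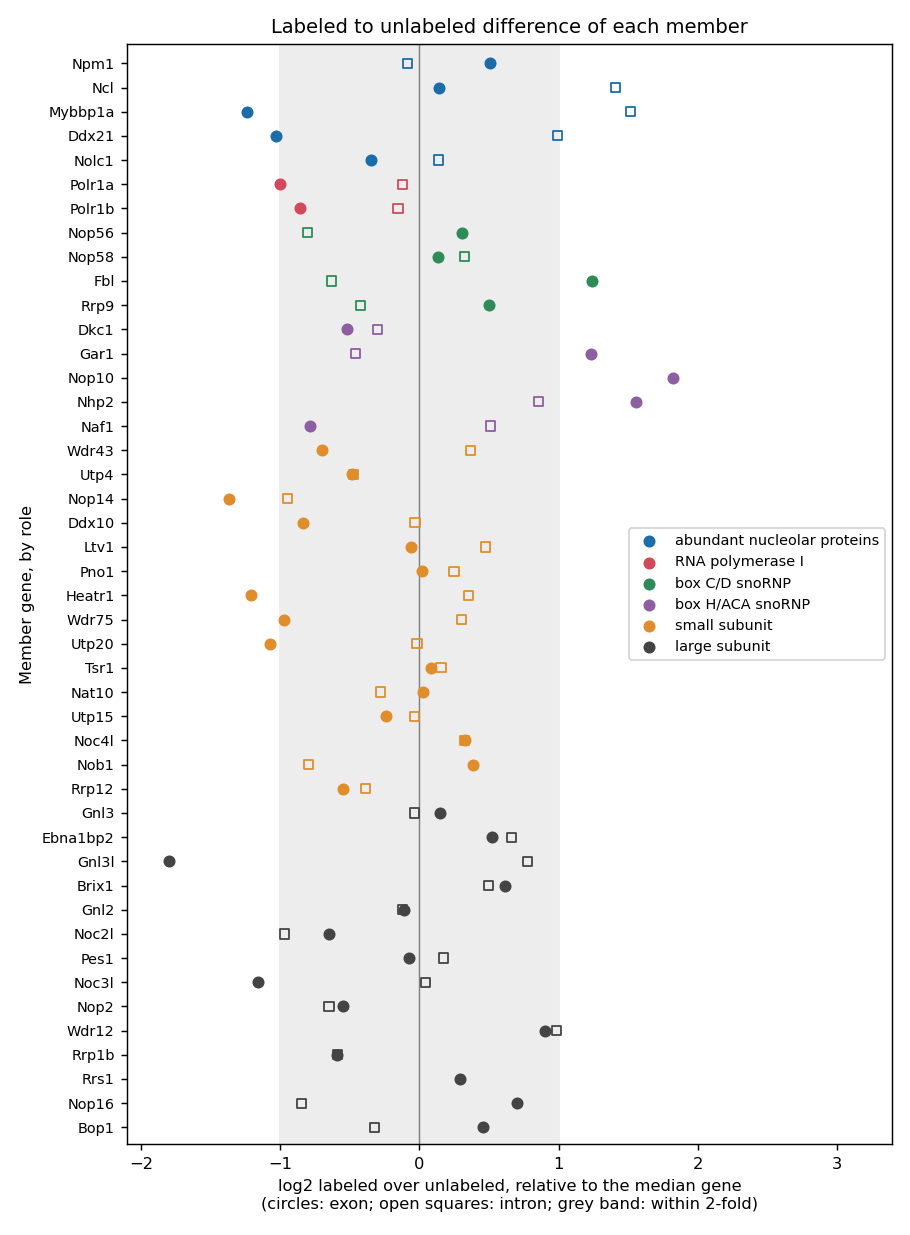
Log2 of labeled over unlabeled value relative to the median gene for each member, with exon differences as filled circles, intron differences as open squares, colors for roles and a grey band for the range within 2-fold. Circles left of the band include Gnl3l at -1.80 and Heatr1 at -1.21, circles right of it include Nop10 at 1.82 and Nhp2 at 1.55, and only the squares of Mybbp1a and Ncl lie outside the band.

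Counted over the 43 members, 8 were at least 2-fold lower in labeled exon RNA relative to the median gene, against 14.5% of all genes, and 3 were at least 2-fold higher, against 21.4% of all genes. These are 18.6% and 6.98% of the members, and 32 lay within 2-fold. The count of lower members was 5 when only genes with a mean exon value above 10 set the median gene, and 12 with leakage of unlabeled RNA subtracted. Over all 45 members with an exon value, 8 were lower, 4 were higher and 33 lay between. The 8 lower members were Gnl3l, Nop14, Mybbp1a, Heatr1, Noc3l, Utp20, Ddx21 and Polr1a, and the 3 higher ones were Nhp2, Fbl and Gar1. Polr1a, 2.003-fold lower, and Wdr75, at a log2 difference of -0.97, were the members just inside and just outside the 2-fold limit. The Wdr75 transcript described holds 5 of up to 21 exons. Its isoform with 21 exons stood at -0.35 and that with 3 exons at 1.45. Among genes at least as abundant as the lowest member (6248 genes), 17.4% were lower and 12.7% were higher.

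The ribosomal proteins that these factors assemble with rRNA are encoded by genes with other values. Cytosolic ribosomal protein genes (82 with full values) had a median difference of 1.74, with 66 at least 2-fold higher and 0 lower. Mitochondrial ribosomal protein genes (69) had a median of 0.89, with 32 higher and 0 lower. The members' median of -0.11 and the 92 of 98 other listed genes of ribosome biogenesis that had full values, with a median of 0.03, lay close to the median gene. Of these 92 genes, 10 were at least 2-fold lower and 11 higher, and 71 lay within 2-fold. The lowest were Tcof1, a factor of rRNA transcription, at -1.49 (70.4 labeled, 251 unlabeled), Tex10 at -1.31 and the helicase Ddx54 at -1.20. The highest were Taf1a, a subunit of the RNA polymerase I selectivity factor, at 2.15 (49.9 and 14.3), Nol12 at 2.13 and Nle1 at 1.84.

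The exon difference went with length among members. Across the 43 members, the Spearman correlation of exon length with the exon difference was -0.56, and that of the unspliced length was -0.59, while over all 12652 genes the values were -0.30 and -0.29. Points share both libraries, and genes are not replicates. The 22 members at or below the median length of 2769 bases had a median difference of 0.32, with 7 below 0. The 21 longer members had a median of -0.65, with 17 below 0. Of the 8 lower members 7 were in the longer group, and all 3 higher members were in the shorter one. Nop14 was the exception, and its transcript is a short isoform of 467 bases. Ncl, with 8202 bases of exons and a difference of 0.14, was the longest member that was not lower than the median gene. The exon level itself did not go with the difference (Spearman correlation of -0.03).

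**Figure D3:**
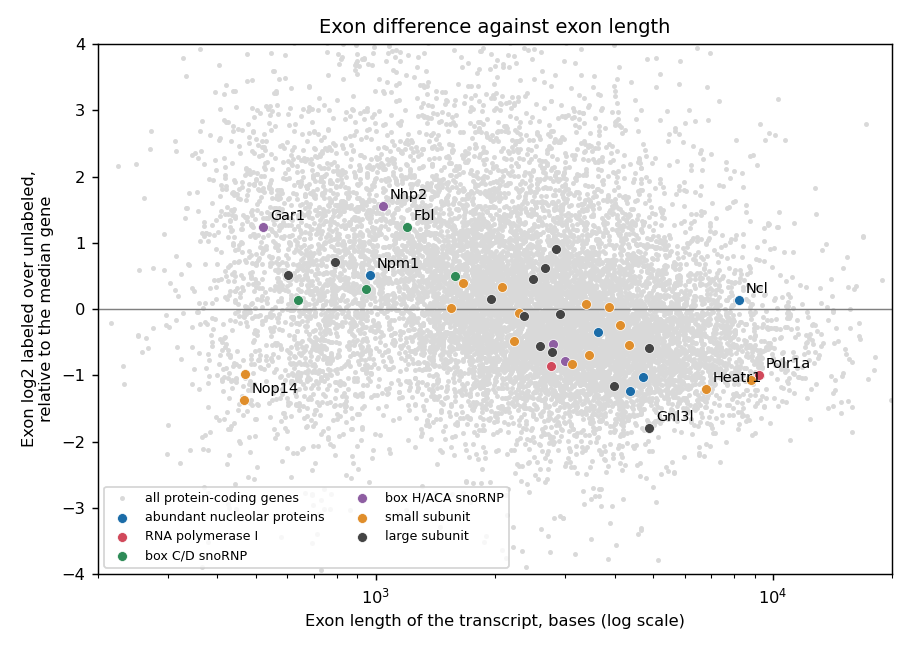
Exon log2 difference relative to the median gene against the exon length of the transcript (log axis) for the 43 members, colored by role, with all protein-coding genes in grey (153 genes lie outside the axes). Short members such as Gar1, Fbl and Nhp2 lie above 0, and long ones such as Gnl3l, Heatr1 and Polr1a lie below it, with Ncl and Nop14 away from this trend.

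Relative to the median gene, introns of members were spread less than their exons (quartiles of -0.40 and 0.36, against -0.81 and 0.36 for exons), as were those of all genes (-0.50 and 0.46, against -0.67 and 0.82). The intron values had a median of 22.1 in labeled and 5.80 in unlabeled RNA, beside 11.8 and 2.95 over all genes and 22.2 and 5.14 over genes at least as abundant as the lowest member. Members thus had the intron values of abundant genes. Relative to the median gene, for which labeled introns were higher by 2.01 on the log2 scale, the members' intron difference had a median of -0.03. No member was at least 2-fold lower, against 11% of all genes, 2 were at least 2-fold higher, against 9.57% of all genes, and 41 lay within 2-fold. The 2 higher members were Mybbp1a at 1.52 and Ncl at 1.41, both abundant nucleolar proteins with unlabeled intron values of 1.15 and 6.16. In its only coding transcript, Mybbp1a was thus among the members with the lowest exon difference and had the highest intron difference. Its 7 isoforms not annotated as protein coding together had exon values of 2457 labeled and 5592 unlabeled, against 243 and 728 for that transcript. For Ncl, 4 isoforms of this kind had 10440 and 9670, against 3563 and 4380 for its 2 protein-coding ones. How far the values of both genes depend on the division of reads among isoforms was not tested. Of the intron values in labeled RNA, the highest after Nop56 and Npm1 was that of Nhp2 at 139, against 19.2 in unlabeled RNA.

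The ratio of intron to exon value is the measure on which the study's method rests, since it does not depend on the scaling of either library. In labeled RNA the members had a median ratio of 0.176, while all genes had 0.473. In unlabeled RNA the medians were 0.0263 and 0.0931. Genes at least as abundant as the lowest member had medians of 0.301 and 0.0472, with a median exon level of 86.5 against 197 for the members, so level was not matched. Among members the ratio was lower at higher exon level (Spearman correlations of -0.64 in labeled and -0.74 in unlabeled RNA, and -0.59 and -0.64 over all genes); the exon value is the denominator of the ratio.

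In labeled RNA the lowest ratios were those of Npm1 (0.00556), Fbl (0.0234) and the large subunit factor Ebna1bp2 (0.0246, exons 483 and introns 11.9). This Ebna1bp2 transcript holds 6 of up to 9 exons. Its isoform with 9 exons had a labeled ratio of 0.0557, above those of Dkc1 (0.0303) and Ncl (0.0320). The highest labeled ratios were those of Naf1 (0.944), the large subunit factor Rrp1b (0.668, exons 68.5 and introns 45.8) and Nhp2 (0.608). For Naf1 the labeled exon value of 39.1 and intron value of 36.9 were nearly equal. In unlabeled RNA the lowest ratios were those of Mybbp1a (0.00158), Npm1 (0.00165) and Ncl (0.00261). The highest were those of Nop16, a large subunit factor (0.226, exons 38.1 and introns 8.59), Nhp2 (0.194) and Nob1 (0.136, exons 55.2 and introns 7.50). Nhp2 was therefore high in both ratios, while its exons were more than 2-fold higher in new RNA relative to the median gene. The place of Nop16 holds for the transcript described only. Its other coding isoform had an unlabeled ratio of 0.0660 (exons 32.7 and introns 2.16), below that of Nob1.

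Under the model of transcription, processing and decay used by the study, the labeled ratio must lie below 1 and above the unlabeled ratio. Of the 43 members, 0 fell outside these limits, against 28.9% of all genes and 7.95% of the 6248 genes at least as abundant as the lowest member. Above the line at 1/(2 - unlabeled ratio), where the equation has a single solution, lay 4 members, against 20.2% of all genes: Naf1, Rrp1b, Nhp2 and Polr1a. Below it, Wdr75 gave 2 solutions in the transcript described. Another 38 members gave none, so that their rates came from the minimum of the distance function instead. Inside the limits of the model, 5662 of all 12652 genes gave no solution. Among the 6248 genes at least as abundant as the lowest member, 4102 gave none.

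**Figure D4:**
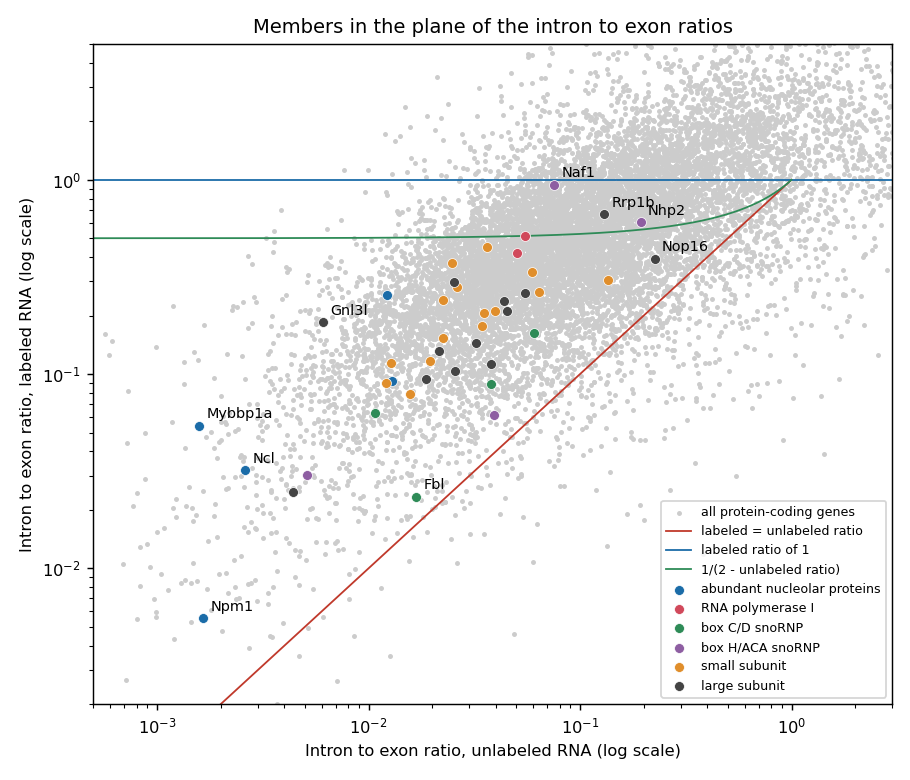
Intron to exon ratio in labeled against unlabeled RNA (log axes) for the 43 members, colored by role, and all protein-coding genes in grey (529 genes lie outside the axes), with the limits of the model in blue and red and the line of a single solution in green. All members lie between the red and blue lines, from Npm1 at the lower left to Naf1 just under the blue line.

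The rates computed from these ratios were those of the study's own equations, with a half-life of ln 2 over the degradation rate. Genes outside the model had no rate (3657 of all 12652 genes and 6 of the 82 cytosolic ribosomal protein genes). Median degradation half-lives of those inside it were 28.1 min for members, 19.6 min for all genes and 174 min for cytosolic ribosomal protein genes. The shortest were those of Polr1b (3.30 min), Heatr1 (4.07 min) and Nhp2 (6.83 min), and the longest those of Naf1 (642 min), Npm1 (570 min) and Fbl (202 min). The half-time of processing had a median of 3.13 min over the members and 3.74 min over all genes inside the model. These values depend strongly on how the 38 members without a solution are treated. With both variables of the distance function free, the median half-life was 4.30 min and the processing half-time 1.71 min. With the second library read as total RNA, the medians were 37.1 min and 1.13 min, Fbl had the shortest half-life of the members (5.48 min), and the members' order had a Spearman correlation of -0.21 with the order above. With leakage of unlabeled RNA subtracted, the half-life of Polr1b was 38.2 min and that of Heatr1 107 min, and Naf1 had none. The Spearman correlation with the first order was 0.49 there (42 members) and 0.42 with both variables free. The shortest and longest members named above thus hold as a set for the first fit only. Naf1 was also the longest with both variables free (642 min) and with total RNA (722 min). With leakage subtracted, Npm1 (511 min) and Fbl (197 min) were the longest.

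The 7 hosts had higher exon levels (median of 1072 against 176 for the other 36) and higher labeled intron values (65.7 against 19.7). In the transcripts described, Nop56 introns were above those of every member that is no host in both pools. This does not hold for the 12-exon isoform of Nop56, with introns at 236 labeled and 96.4 unlabeled, beside 347 labeled for Npm1. Their unlabeled intron to exon ratios had a median of 0.0225 and ranged from 0.00261 in Ncl to 0.0395 in Tsr1, and those of the other members had a median of 0.0303, a log2 difference of -0.43. Over all genes the 205 hosts had a median of 0.0432 and the rest 0.0940. Dkc1 introns were at 23.0 and 7.06, Wdr43 introns at 64.6 and 12.4, Nop58 introns at 75.1 and 14.9 and Tsr1 introns at 23.3 and 5.22 in labeled and unlabeled RNA. All 7 hosts lay within 2-fold of the median gene in exon difference (from -0.70 in Wdr43 to 0.31 in Nop56).

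Many member genes also have transcripts that are not annotated as protein coding. Whether these hold a coding sequence was not checked. Of the members, 25 had such isoforms with values, and their share of the exon values of the gene was higher in labeled RNA in 10 of the 25, against 63.6% of all genes with such isoforms. The median share was 57.4% labeled and 62.6% unlabeled in members, and 44.4% and 39.7% over all 7719 such genes. Isoforms share exons, so these shares depend on how the reads were divided among them. A single coding transcript was listed for 24 members. In Nop56, Nop58, Nop14 and Wdr75 the transcript described held fewer than 50% of the exons of the coding isoform with the most exons. The members in all made up 2.68% of the exon values of labeled RNA and 2.18% of unlabeled RNA, and without Npm1 0.351% and 0.382%.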

How the data were processed

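RNA of wild-type mESC labeled with 4sU was separated and sequenced by the authors, who removed reads of ribosomal RNA, aligned the rest with STAR 2.5.0 to exon and intron sequences (Ensembl v91, mm10) and quantified them with RSEM. The deposited table calls its values TPM, but each column sums to 10 times that scale, so they were treated as a score of relative abundance. No counts were used and depth is unknown. Transcripts (121429, of which 90.9% matched) were named with GENCODE M21. The members, lists and windows were chosen with earlier results of these data known. Members named with values were the highest in level and the extremes of exon difference in each role, the 3 extremes of each ratio and of half-life, and snoRNA hosts. Rates were obtained in Python 3.11.15 (scipy 1.17.1) by solving the study's equation on 4000 grid points or minimizing its distance function, and the solver was tested on simulated data. Alternatives covered filters, a pseudocount of 0.1, isoforms, leakage of unlabeled RNA, scaling, the fit and the reading of the second library. With 1 library per pool, differences describe these libraries only.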

Additional observations from a re-analysis of the deposited data

How the results depend on the processing

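No paired analysis was possible because each pool had 1 library. Of 61 alternative values, 54 stayed within the interval of the members' median or within 1.5 times the count, and 7 moved. Some could not move. All 43 members exceed a mean exon value of 10, so removing or raising the minimum left their ratios and rates unchanged. Leakage subtraction left the unlabeled ratios unchanged. The intervals run over member genes, which are not replicates. With the second library as total RNA the median half-life counted as unmoved. The members' order there had a Spearman correlation of -0.21 with the first order. With a mean exon value above 10, 5 members were at least 2-fold lower; the members' own values are the same there and only the median of all genes differs. With all coding transcripts, which counts 80 transcripts in place of 43 genes, 6 were at least 2-fold higher and 6 lay outside the model, all minor isoforms, in Nop58, Gnl3l, Nat10 and Gar1. With leakage of unlabeled RNA subtracted (0.148 of each unlabeled value), 1 lay outside the model, Naf1 at a labeled ratio of 1.36. With both variables free, the half-life was 4.30 min and the processing half-time 1.71 min, and with the second library as total RNA the processing half-time was 1.13 min; the cause was not tested. Scaled to exon totals without centring, the median of all genes was -0.20 in place of -0.34, and 11 members were lower and 3 higher. The members' median exon difference lay near 0 and changed sign (0.04) with a mean exon value above 10. Depth is unknown, so the precision of low values, such as the unlabeled introns of Mybbp1a at 1.15 and Noc4l at 0.97, cannot be given.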
